A study of Schizosaccharomyces pombe with 6 samples.

Results

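Capped RNA 5′ ends that fall within an intron, on the strand of the gene that holds it, were examined in fission yeast (*Schizosaccharomyces pombe*). Members were the deposited tag clusters whose summit, the position with most tags, lay in an annotated intron of a protein-coding gene on the same strand. They numbered 1974 of 108138 clusters. Introns wholly upstream of the start codon, here leader introns, held 106 of them, and introns between start and stop codon, here coding introns, held 1868. The choice used positions and no measured level.

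An intron is removed from the transcript of the annotated promoter, so an RNA that begins inside it lacks every exon upstream and keeps the rest of the intron as its new leader, unless a splice site there is still used. Start sites of RNA polymerase II in yeast usually lie at a pyrimidine followed by a purine, the initiator step, in which the purine is the first base of the RNA. Fft2 and Fft3 are related ATPases of the SNF2 family, enzymes that move or exchange nucleosomes, and Fft3 is known in fission yeast for keeping nucleosomes in place and silencing heterochromatin.

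A double mutant was compared with the wild type by CAGE (cap analysis of gene expression), in which RNA is sequenced from its capped 5′ end. The mutant strain carried fft2::kan and fft3::hph with ade6M210, leu1-32 and ura4-D18, and the wild type carried ade6-M210, leu1-32 and ura4-D18 alone, so that both had the 3 auxotrophic alleles. Both were of mating type h-. Whole cells of both were collected in mid-log phase from YES medium at 30 °C, shaken at 180 rpm. Each genotype was 1 strain with 3 libraries. The labels mention duplicate cultures and the series 3 libraries per group, so libraries may share a culture, and p-values cover no more than the spread among libraries.

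Libraries held 19861904 to 23242893 tags in the mutant and 12681901 to 20073001 in the wild type, of which between 91.2% and 92.3% fell into clusters. Levels are in TPM, which here means tags per 1000000 tags, and means are followed by the SD of the 3 libraries of a group. Across tested clusters, which are not independent, Pearson's r of log2 values lay between 0.984 and 0.989 for pairs of mutant libraries, 0.981 and 0.991 for pairs of wild-type libraries and 0.898 and 0.912 for mixed pairs. Tags in the coding part of fft2 were 0.1197 ± 0.04598 TPM in the mutant and 5.11 ± 1.02 TPM in the wild type, and those in fft3 were 0.414 ± 0.177 and 2.56 ± 0.952 TPM (SD, n = 3 each). Both fell (limma adjusted p = 2.56e-06 and 0.000878), as the genotype labels require.

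The starts that carry the main results are shown with 20 bases upstream and 10 bases from the first base of the RNA onward, on the host strand, 5′ to 3′, from RefSeq assembly ASM294v3, with capitals on the base before the start and the first base of the RNA. The leader-intron starts comprise the strongest one, the pair in dao1 and the one in vms1.
SPBC3B8.06 (II:3385260-3385289, minus strand): atgatggcagaagtgttatTAactcttttt
dao1, upstream start (III:1738024-1738053, minus strand): ttgtagcgaattgaactgcTGaaagtgatt
dao1, downstream start (III:1737847-1737876, minus strand): ttcccattgtaactgctttTAattttttac
vms1 (III:2382641-2382670, plus strand): tgctagattgaaattctacTGaaaattatt
The coding-intron starts shown next had some of the largest increases (ggc1, cyb502, ubc15, cdc2), the largest decreases (gdt2, uba42) or a high level in both strains (atg1801, omh5).
ggc1 (III:389427-389456, minus strand): cagttggcttcagtatactCGttcatcttt
cyb502 (II:2575246-2575275, minus strand): taattcgacaaaacttttgTAgaagtaaac
ubc15 (II:3523194-3523223, plus strand): acaagctggtcactaacctCGaaaaattag
cdc2 (II:1500987-1501016, plus strand): gtatattttttttcttactTGgctgtatga
gdt2 (I:2356299-2356328, minus strand): tgcaaatatgcaggtgatgCAgaatttact
uba42 (I:827876-827905, minus strand): caggtatgttaagtactttCAgaagttatc
atg1801 (I:3105827-3105856, minus strand): agccgcgggtcattccactTGtctcaagcc
omh5 (II:1467292-1467321, minus strand): ctcaatgcttggtatttacCAacctcatat
The rgp1 intron, which had the largest change, is shown from 100 bases upstream, and pro2 from 60 bases upstream, where capitals also mark TATAAA read on the opposite strand.
rgp1 (II:3856863-3856982, plus strand): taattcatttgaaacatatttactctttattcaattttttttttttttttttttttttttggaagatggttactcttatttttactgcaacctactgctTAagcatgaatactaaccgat
pro2 (I:2028589-2028658, minus strand): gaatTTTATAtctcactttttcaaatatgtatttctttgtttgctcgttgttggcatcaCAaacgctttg

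A separate set of starts lay at the splice sites themselves. In the next sequences the capitals mark the last 3 bases of the intron, and the first base of the RNA is the A among them.
SPAC9.07C (I:1475892-1475921, minus strand): ttggagtactaatctttctTAGttggtttc
miy1 (I:327476-327505, plus strand): tacaaactaacacttcaaaTAGctacatgt
gem1 (III:164909-164938, plus strand): tttttaaccttttttgtccCAGctctccga
srp21 (I:2016487-2016516, plus strand): aactctgacttttttcattTAGaccaaact
cdc7 (II:3226089-3226118, minus strand): cgccaaatactaaacgtggTAGcatccaaa
trs1, start at the end of the leader intron (II:3282178-3282207, minus strand): tttattttactaacactttTAGtaaacagg
In SPCC777.12C the start lay at the other end of the intron. Capitals there mark the first 6 bases of the intron, and the RNA begins at the A among them that follows GT.
SPCC777.12C (III:1617756-1617785, minus strand): ggagagctactttttaacGTAAGTaatgga

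Of the 105 annotated leader introns, 54 (51.4%) held at least 1 cluster, and of the 5045 coding introns 1381 (27.4%) did. The hosts were 54 and 1062 genes. The share of coding introns with a cluster was 17.2% below 50 nt, 24.9% from 50 to under 100 nt, 42.5% from 100 to under 200 nt and 69.6% from 200 nt upward. Most clusters were weak, with a median of the mean level of 0.0921 TPM in leader introns and 0.0491 TPM in coding introns.

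All clusters in coding introns together had 570, 668 and 617 TPM in mutant replicates 1 to 3, against 322, 318 and 296 TPM in wild-type replicates 1 to 3. The groups did not overlap, with means of 619 ± 48.99 TPM in the mutant and 312 ± 14.0 TPM in the wild type, a ratio of 1.98. The corresponding sums for sense clusters in coding exons were 24371 ± 1278 and 14656 ± 316 TPM, a ratio of 1.66. Per kilobase of sequence, coding introns held 1.496 TPM in the mutant and 0.754 TPM in the wild type, and coding exons held 3.41 and 2.05 TPM. Clusters from 500 bp upstream to 100 bp downstream of an annotated gene start on the same strand counted as promoter clusters, not as exon clusters. Intron clusters in such windows stayed intron clusters, and the coding-exon length includes bases in these windows. Comparisons of intron with exon clusters, here and below, are therefore of sets chosen unlike in this respect. No test was made of these sums.

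Leader introns together had 171, 177 and 171 TPM in mutant replicates 1 to 3, against 151, 136 and 169 TPM in wild-type replicates 1 to 3. The mean was 173 ± 3.20 TPM in the mutant and 152 ± 16.8 TPM in the wild type, a ratio of 1.14. A single cluster, in SPBC3B8.06, made up most of that sum, and without it the means were 69.5 ± 6.57 and 49.4 ± 2.73 TPM, a ratio of 1.41. In tags of the libraries as a whole, leader introns held 0.0173% in the mutant and 0.0152% in the wild type, and coding introns held 0.0619% and 0.0312%.

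Tags were found in the mutant and in no wild-type library for 678 of the 1868 clusters in coding introns, and in the wild type alone for 110. In leader introns these numbers were 18 and 5 of 106. Over all 108138 clusters of the series, each mutant library had a tag in 73365 to 80059 and each wild-type library in 44929 to 54375. The share of all clusters with tags in 1 group alone is not given here, so these counts are no result about introns. The mutant libraries were on the whole deeper, and the part of depth in these counts was not tested.

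The initiator step was found at a larger share of intron starts than of coding exon starts, given as a description with no test. Among clusters averaging 1 TPM or more, the step was present at 71 of 77 starts in coding introns (92.2%), 11 of 12 in leader introns (91.7%), 1186 of 2714 in coding exons (43.7%) and 98.0% in promoters. Intron starts were not alone in this, since the share was 90.5% in leader exons, 91.5% in trailer exons downstream of the stop codon, 91.2% in antisense clusters and 95.3% in the remaining clusters. The low share was that of coding exons. Over all clusters regardless of level it was present at 79.3% in coding introns, 78.3% in leader introns, 36.4% in coding exons and 88.0% in promoters. A pyrimidine-purine step is found at 23.9% of intron positions and 22.8% of coding exon positions. The exceptions among tested intron starts were in rps2502, tif211, mni1, uap2, tef5 and sum2 (coding introns) and in ppa1 (leader intron).

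The motif TATAAA, searched on both strands in the 60 bases upstream of the start, was found at 7 of the 77 tested starts in coding introns (9.09%) and at 3 of 12 in leader introns (25%). Its share was 4.20% at tested starts in coding exons and 11.3% in promoters. Over all clusters regardless of level it was found at 13.3% in coding introns, 12.3% in leader introns, 4.62% in coding exons and 12.6% in promoters. The higher share in leader introns thus held for the 12 tested starts and not for all 106. The leader-intron hosts with the motif were the amino acid permease gene SPAC1039.01, the telomere protection gene tpz1 and the oxidoreductase gene SPBC115.03.

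**Figure D1:**
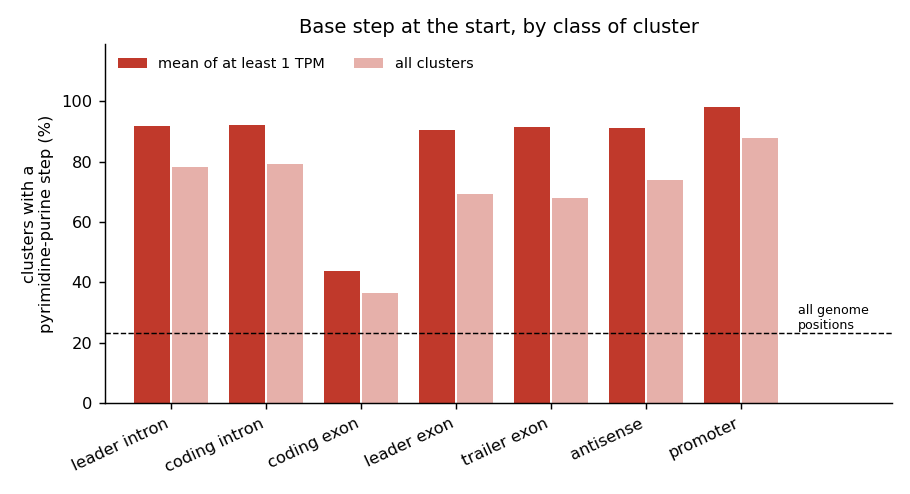
Share of clusters with a pyrimidine-purine step at the start (y axis, percent) for 7 classes of cluster (x axis), with dark bars for clusters averaging 1 TPM or more, light bars for all clusters and a dashed line at the 23.1% of all genome positions. Intron clusters sit at 91.7% and 92.2% in the dark bars, and every class but coding exons, at 43.7%, has a dark bar of 90.5% or more.

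Summits in coding introns piled up at single positions next to the splice sites. The last intron base held the summits of 99 clusters, against 15 at the base before it and 19 at the base after it, the first base of the exon. Because the first base of an RNA lies 1 bp upstream of the summit coordinate, these RNAs began at the A of the splice acceptor, and 98 of the 99 had the initiator step. Among the annotated coding introns, 68.6% ended in TAG and 19.0% in CAG, each of which places a pyrimidine before that A. The 99 clusters summed to 57.7 ± 7.68 TPM in the mutant and 29.7 ± 2.28 TPM in the wild type (ratio 1.95), while all other coding-intron positions summed to 561 ± 42.6 and 282 ± 15.5 TPM (ratio 1.99). A single cluster of the 99, in SPAC9.07C, held 25.4 ± 5.73 TPM in the mutant and 22.2 ± 2.94 TPM in the wild type. It made up most of the wild-type sum, so the ratio of 1.95 rests largely on it and does not describe the other clusters.

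Near the start of coding introns, the intron base 4 held 78 summits, against 19 at base 3 and 4 at base 5. The RNAs then began at the A of the donor GTA, as in the SPCC777.12C sequence. These clusters were weak, with 17.5 TPM in the mutant and 7.01 TPM in the wild type over all 78. In leader introns the last base held 4 clusters, with 7.15 ± 0.351 TPM in the mutant and 2.34 ± 0.509 TPM in the wild type, and the clusters of trs1 and SPBC115.03 were the tested ones. Both extended past the intron into the exon, and these sums are of whole clusters.

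**Figure D2:**
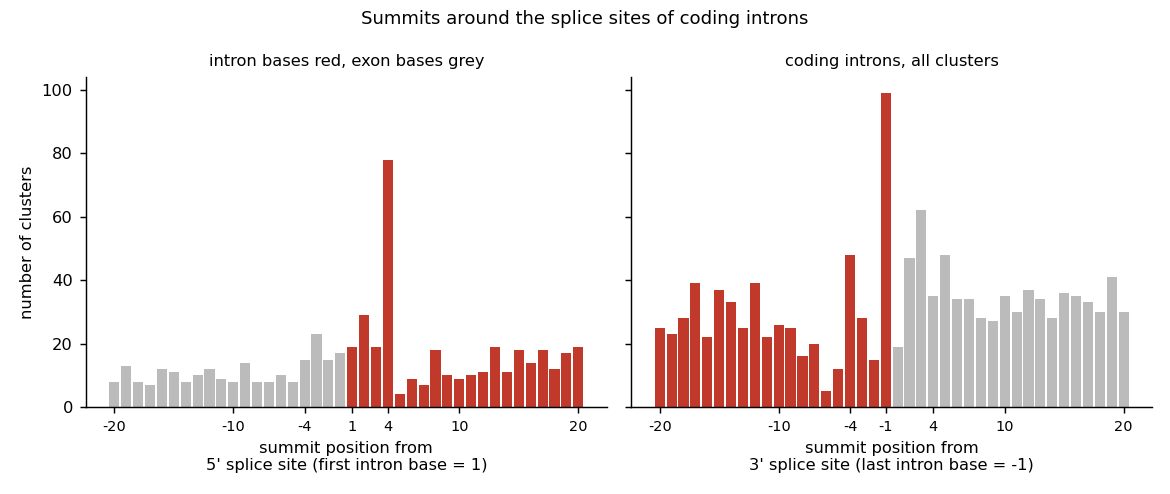
Number of clusters (y axis) by summit position around the 5′ splice site (left) and the 3′ splice site (right) of coding introns (x axis, bases), with intron bases in red and exon bases in grey. Single positions stand out at intron base 4 (78 clusters) and at the last intron base (99 clusters).

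Tests were limited to the 12 clusters in leader introns and 77 in coding introns whose mean of all 6 libraries reached 1 TPM. The remaining 94 and 1791 fell below that level. A cluster that reached 1 TPM through the mutant alone had to be higher there, and this held for 2 leader-intron and 35 coding-intron clusters (1 and 4 through the wild type alone), so counts over tested clusters are descriptions. The nearest clusters on either side of the limit were SPBC115.03 at 1.03 TPM and SPAC26H5.09C at 0.911 TPM in leader introns, and ceo2 and elo1 in coding introns, both at 1.00 TPM to 3 digits. Fold changes are on the log2(TPM + 0.5) scale, mutant over wild type, with the standard error, from limma with Benjamini-Hochberg adjustment over all 11250 tested clusters of the series.

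In leader introns 6 of the 12 tested clusters were higher in the mutant, 2 were lower and 4 were not called. Of the 12 clusters 8 lay wholly inside the intron, and of these 3 were higher and 2 lower. Over all tested clusters 36.9% were called higher and 9.36% lower. The median log2 fold change was 0.64 in leader introns and 0.27 over all clusters. With median-of-ratios or TMM scaling, which put the median of all clusters at -0.02, the leader-intron counts were 5 and 4 with median-of-ratios scaling, and 5 and 4 with TMM.

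The strongest cluster of all introns was that of SPBC3B8.06, a gene of unknown function, at base 11 from the end of its 149 nt leader intron (the last base counted as 1). It had 109, 103 and 97.6 TPM in mutant replicates 1 to 3, against 99.5, 85.003 and 123 TPM in wild-type replicates 1 to 3. The groups overlapped and no call was made (log2 0.03 ± 0.15, adjusted p = 0.902). Its annotated promoter had 93.9 ± 2.45 TPM in the mutant and 95.0 ± 5.31 TPM in the wild type, and the intron start had 52.4% ± 1.66 of the pair's tags in the mutant and 51.6% ± 3.44 in the wild type.

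The leader intron of dao1, the gene of D-amino acid oxidase, which breaks down D-amino acids, spans 434 nt and held a pair of tested starts, at bases 254 and 77 from its end. The upstream start had 14.2, 15.99 and 17.2 TPM in the mutant, against 18.2, 15.3 and 18.0 TPM in the wild type, with overlapping groups and no call as deposited (log2 -0.11 ± 0.14, adjusted p = 0.552). With either scaling it was called lower (log2 -0.43, limma adjusted p = 0.0295 with median-of-ratios and 0.0265 with TMM). The downstream start had 0.774, 1.21 and 1.71 TPM in the mutant, against 5.28, 5.99 and 4.20 TPM in the wild type, all mutant libraries below all wild-type libraries, and fell (log2 -1.73 ± 0.23, adjusted p = 0.000331). The dao1 promoter differed most among wild-type libraries, with 10.3, 5.99 and 6.65 TPM in the mutant, against 1.30, 11.9 and 1.87 TPM in the wild type, wild-type replicate 2 standing apart. Relative to it the downstream start was lower (log2 -2.81 ± 0.59, adjusted p = 0.00260), and the upstream start was so called only without wild-type replicate 2 (log2 -2.14, adjusted p = 0.000360, against -1.20 and 0.190 with all libraries).

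Vms1 is known from budding yeast as a factor that acts on stalled ribosomes. The start in its 71 nt leader intron had 7.74, 7.33 and 6.90 TPM in the mutant, against 1.20, 1.66 and 0.911 TPM in the wild type. This cluster spans III:2382546-2382662 and the intron III:2382631-2382701, so much of the cluster lay upstream of the intron. The values are of the whole cluster, and the part from the intron was not separated. Mutant libraries all lay above wild-type libraries and the cluster rose (log2 2.18 ± 0.19, adjusted p = 2.14e-05), while the promoter had 21.3 ± 1.63 TPM in the mutant and 23.9 ± 3.53 TPM in the wild type and was not called (log2 -0.16 ± 0.15, adjusted p = 0.483). The intron start made up 25.6% ± 1.57 of the pair's tags in the mutant and 5.08% ± 1.92 in the wild type.

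The leader intron of trs1, which codes for threonyl-tRNA ligase, the enzyme that charges the threonine tRNA, held a start at its last base and one at base 81 from the end. The start at the last base had 5.38, 6.29 and 5.14 TPM in the mutant, against 1.94, 1.66 and 1.37 TPM in the wild type. Its cluster spans II:3282126-3282192 and the intron II:3282186-3282421, so most of the cluster lay downstream of the intron. The values are of the whole cluster, and the part from the intron was not separated. The upstream start had 4.52, 5.30 and 5.29 TPM in the mutant, against 1.20, 1.18 and 0.961 TPM in the wild type. Both rose, with no overlap of groups (log2 1.51 ± 0.17, adjusted p = 0.000114; log2 1.78 ± 0.16, adjusted p = 2.47e-05). The trs1 promoter was far stronger, with 1218 ± 230.1 TPM in the mutant and 1596 ± 308 TPM in the wild type, and both intron starts lay far below it in every library.

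The amino acid permease gene SPAC1039.01 had 6.71, 9.18 and 9.16 TPM in the mutant, against 2.94, 3.31 and 2.63 TPM in the wild type at a start at base 8 from the end of its leader intron, an increase (log2 1.35 ± 0.18, adjusted p = 0.000293) with no overlap. The start in tpz1, whose product protects telomeres, had 1.38, 1.64 and 1.91 TPM in the mutant, against 0.697, 0.867 and 0.354 TPM in the wild type and rose (log2 0.93 ± 0.21, adjusted p = 0.00674), while its promoter fell to 10.02 ± 0.780 TPM in the mutant, against 17.3 ± 1.10 TPM in the wild type (log2 -0.76 ± 0.13, adjusted p = 0.00808). In SPBC115.03, of an oxidoreductase family, the start at the last intron base had 1.25, 1.16 and 1.96 TPM in the mutant, against 0.747, 0.710 and 0.354 TPM in the wild type. It was called higher (log2 0.82 ± 0.22, adjusted p = 0.0155). The call was lost without mutant replicate 3 (adjusted p = 0.0504) or wild-type replicate 3 (0.0572), with either scaling (0.0529 and 0.0521) and with edgeR (0.0642) or DESeq2 (0.103). The promoter of SPBC115.03 fell to 2.08 ± 0.464 TPM in the mutant, against 7.49 ± 0.193 TPM in the wild type (log2 -1.65 ± 0.18, adjusted p = 0.00109).

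The start in ppa1, a gene of a catalytic subunit of the protein phosphatase PP2A, had 0.947, 0.733 and 0.705 TPM in the mutant, against 2.44, 2.52 and 2.12 TPM in the wild type and fell (log2 -1.15 ± 0.16, adjusted p = 0.000413), the groups not overlapping. The gluconokinase gene idn1 had 2.93, 4.01 and 4.28 TPM in the mutant, against 3.99, 6.23 and 5.06 TPM in the wild type and was not called as deposited (log2 -0.39 ± 0.21, adjusted p = 0.159), but was called lower with either scaling (log2 -0.68, adjusted p = 0.0255 with median-of-ratios and -0.69, 0.0265 with TMM). The cluster of cox14, whose product assists cytochrome c oxidase assembly, had 1.25, 2.54 and 1.06 TPM in the mutant, against 1.59, 0.315 and 1.42 TPM in the wild type and was not called (log2 0.45 ± 0.39, adjusted p = 0.389). The leader intron of ade4, of purine synthesis, contains a snoRNA gene and held 3 weak clusters near or in it, the strongest with 0.263 ± 0.137 TPM in the mutant and 0.153 ± 0.0515 TPM in the wild type.

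**Figure D3:**
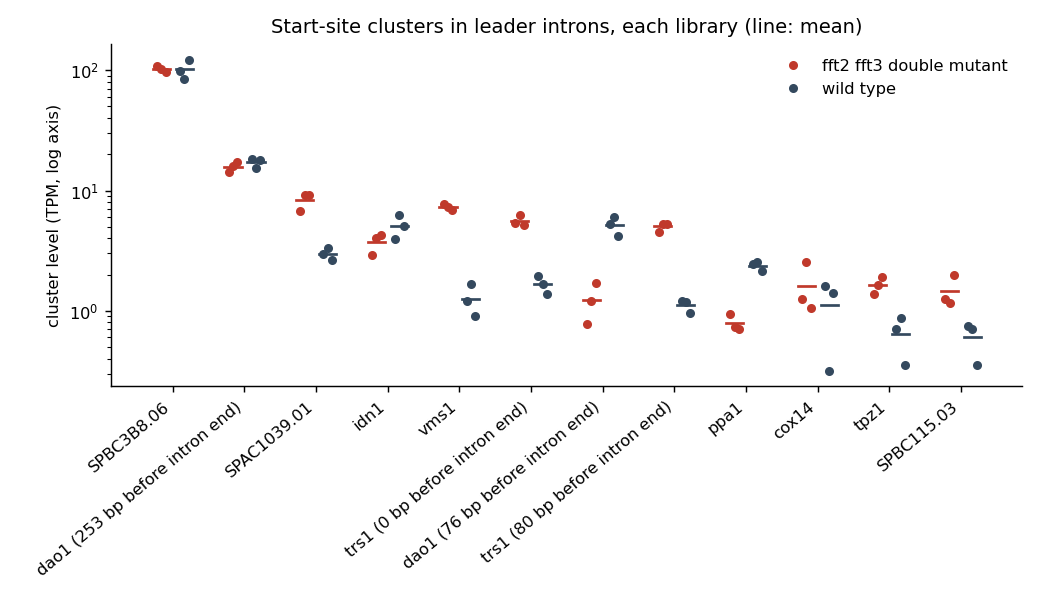
Level of the 12 tested clusters in leader introns (y axis, TPM on a log axis) in each library, with mutant points in red, wild-type points in dark blue beside them and lines at the group means. The mutant is clear of the wild type upward in vms1, SPAC1039.01, both trs1 starts, tpz1 and SPBC115.03, and downward in the downstream dao1 start and ppa1.

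In coding introns 45 of the 77 tested clusters were higher in the mutant, 6 were lower and 26 were not called, with a median log2 fold change of 0.91. The shares over sense clusters in coding exons were 47% higher and 2.43% lower, with a median of 0.50. Groups did not overlap in 47 coding-intron clusters with the mutant above (61.0%) and in 7 with the mutant below (9.09%). The same was true of 53.2% and 3.83% of tested clusters in coding exons, and of 42.7% and 12.4% of all tested clusters. Of the 77 clusters 45 lay wholly inside the intron, and of these 25 were higher and 4 lower, the others extending into a neighbouring exon.

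The largest change was in the single intron of rgp1, whose budding yeast counterpart works with Ric1 as an exchange factor for a Rab GTPase at the Golgi. The start lay at base 23 from the end of the 290 nt intron and had 23.1, 26.5 and 21.8 TPM in mutant replicates 1 to 3, against 0.249, 0.0789 and 0.101 TPM in wild-type replicates 1 to 3. No mutant library was near the wild-type range (log2 5.24 ± 0.17, adjusted p = 6.61e-07), and the ratio of means was 166. That ratio rests on 8 tags in the wild type, against 1585 in the mutant, and is imprecise. The cluster reached 1 TPM through the mutant alone. The annotated promoter had 4.39, 6.03 and 4.78 TPM in the mutant, against 11.1, 14.0 and 8.65 TPM in the wild type and fell (log2 -1.06 ± 0.21, adjusted p = 0.0125). The intron start had 82.5% ± 1.36 of the pair's tags in the mutant and 1.31% ± 0.832 in the wild type.

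Ggc1 is a mitochondrial carrier of guanine nucleotides. The start in its first intron, at base 23 from the end, had 17.1, 28.9 and 29.5 TPM in the mutant, against 5.38, 5.20 and 2.83 TPM in the wild type. It rose (log2 2.37 ± 0.28, adjusted p = 0.000149), and its mutant replicate 1 and wild-type replicate 3 were the lowest of their groups. The ggc1 promoter fell to 74.3 ± 10.2 TPM in the mutant, against 107 ± 2.75 TPM in the wild type (log2 -0.53 ± 0.13, adjusted p = 0.0229).

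Cytochrome b5, an electron carrier of the endoplasmic reticulum, is encoded by cyb502. The start in its first intron had 6.93, 6.42 and 6.80 TPM in the mutant, against 0.648, 0.473 and 0.101 TPM in the wild type and rose (log2 3.04 ± 0.24, adjusted p = 1.22e-05), while the promoter had 136 ± 2.07 TPM in the mutant and 194 ± 23.2 TPM in the wild type and fell (log2 -0.51 ± 0.12, adjusted p = 0.0223). The ubiquitin-conjugating enzyme gene ubc15 had 5.85, 4.96 and 3.32 TPM in the mutant, against 0.448, 0.237 and 0.405 TPM in the wild type at its intron start (log2 2.57 ± 0.22, adjusted p = 1.96e-05), with a promoter not called at 128 ± 2.91 TPM in the mutant and 107 ± 18.5 TPM in the wild type. In miy1, which codes for a deubiquitinase, the start at the last base of the last intron had 4.26, 3.58 and 2.92 TPM in the mutant, against 0.399, 0.315 and 0.101 TPM in the wild type and rose (log2 2.41 ± 0.21, adjusted p = 2.06e-05). None of the mutant libraries overlapped the wild type in these 3 genes.

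The start in the fourth of 5 introns of cdc2, the cyclin-dependent kinase that drives the cell cycle, had 2.41, 2.28 and 1.86 TPM in the mutant, against 0, 0.158 and 0 TPM in the wild type. The wild-type value rested on 2 tags against 146 in the mutant, a ratio of 57.8 with a 95% exact counting interval of 15.7 to 482 that covers counting error only. The cluster rose (log2 2.29 ± 0.18, adjusted p = 1.08e-05) while the promoter, with 62.2 ± 14.0 TPM in the mutant and 58.5 ± 16.02 TPM in the wild type, was not called. In gem1, of the complex that tethers mitochondria to the endoplasmic reticulum, the start at the last base of intron 9 had 2.27 ± 0.638 against 0.0764 ± 0.0246 TPM (mutant against wild type) and rose (log2 2.24 ± 0.19, adjusted p = 1.89e-05).

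In pro2 and SPAC3G6.05 the intron start and the promoter changed in opposite directions. Pro2 is the glutamate kinase that begins proline synthesis, and its intron start had 2.24, 3.92 and 2.06 TPM in the mutant, against 0.149, 0.315 and 0.101 TPM in the wild type (log2 2.20 ± 0.24, adjusted p = 8.37e-05). The pro2 promoter had 22.6, 25.5 and 18.2 TPM in the mutant, against 129.9, 96.4 and 143 TPM in the wild type and fell (log2 -2.44 ± 0.19, adjusted p = 0.000235). SPAC3G6.05 belongs to the Mpv17 and PMP22 family of membrane proteins, and its intron start had 1.98, 1.94 and 2.11 TPM in the mutant, against 0.299, 0.237 and 0.506 TPM in the wild type (log2 1.58 ± 0.17, adjusted p = 7.91e-05). Its promoter had 37.4, 52.0 and 48.1 TPM in the mutant, against 271, 245 and 208 TPM in the wild type and fell (log2 -2.39 ± 0.16, adjusted p = 0.000143). All 12 same-strand clusters outside introns upstream of that intron, promoter included, summed to a mean of 117 TPM in the mutant and 312 TPM in the wild type. The share and the change relative to the promoter leave out those between the promoter window and the intron. The intron starts remained a small part in both, with 10.8% ± 2.25 of the pair's tags in the mutant and 0.171% ± 0.137 in the wild type for pro2 and 4.27% ± 0.716 of the pair's tags in the mutant and 0.150% ± 0.0807 in the wild type for SPAC3G6.05.

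Dcw1, an enzyme of mannan and cell wall metabolism, had almost no tags at its annotated promoter, with 0.144 ± 0.139 TPM in the mutant and no tag in the wild type. The start in intron 3, its last, had 2.37, 2.50 and 2.16 TPM in the mutant, against 0.448, 0.394 and 0.354 TPM in the wild type and rose (log2 1.66 ± 0.15, adjusted p = 2.55e-05). Upstream of that intron, from 500 bp before the annotated gene start, lay 8 other same-strand clusters outside introns. They summed to a mean of 5.50 TPM in the mutant and 0.771 TPM in the wild type, so the increase was not confined to the intron. The annotated leader of dcw1 is 0 nt long. The cluster in SPBC2A9.13, which overlaps an annotated non-coding RNA of the same strand, had 1.76, 1.29 and 1.86 TPM in the mutant, against 1.05, 0.631 and 0.810 TPM in the wild type and was called higher (log2 0.69 ± 0.19, adjusted p = 0.0167). The SPBC2A9.13 call was lost without mutant replicate 3 (adjusted p = 0.0594) or wild-type replicate 2 (0.0502), with either scaling (0.0798 and 0.0759) and with edgeR (0.104) or DESeq2 (0.220).

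The lower clusters were fewer. Gdt2, a homologue of the Golgi ion transporter Gdt1, had 1.08, 0.948 and 0.453 TPM in the mutant, against 3.74, 6.07 and 2.73 TPM in the wild type at a start in the middle of its single 271 nt intron and fell (log2 -1.79 ± 0.30, adjusted p = 0.00112). Its promoter had 99.1 ± 12.6 TPM in the mutant and 110.5 ± 12.3 TPM in the wild type and was not called. The start in uba42, annotated as a thiosulfate sulfurtransferase, had 1.85, 2.46 and 2.11 TPM in the mutant, against 6.23, 6.62 and 7.08 TPM in the wild type and fell (log2 -1.44 ± 0.16, adjusted p = 9.37e-05), with a promoter of 21.2 ± 3.33 TPM in the mutant and 19.9 ± 0.638 TPM in the wild type. Set6, annotated as a histone lysine methyltransferase, had 1.59, 1.29 and 1.71 TPM in the mutant, against 3.44, 2.68 and 3.19 TPM in the wild type (log2 -0.83 ± 0.17, adjusted p = 0.00392). In all 3 genes the mutant libraries lay below the wild-type ones without overlap.

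The third intron of gnd1, of the pentose phosphate pathway, measures 817 nt and held tested starts that changed in opposite directions. The one at base 295 from the end had 5.81, 3.97 and 5.69 TPM in the mutant, against 2.24, 1.89 and 3.54 TPM in the wild type and was called higher (log2 0.91 ± 0.24, adjusted p = 0.0139). This call was lost without mutant replicate 3 (adjusted p = 0.0568), with either scaling (0.0659 for both) and with edgeR (0.0795) or DESeq2 (0.0782). The one at base 142 from the end had 1.03, 0.517 and 0.755 TPM in the mutant, against 2.34, 1.66 and 1.47 TPM in the wild type and fell (log2 -0.87 ± 0.22, adjusted p = 0.00999). The gnd1 promoter had 957 ± 191 TPM in the mutant and 982 ± 63.1 TPM in the wild type, far above both starts.

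Calls of a decrease in SPCC1884.01 and pps1 were less firm. SPCC1884.01, a gene of unknown function, had 12.2, 13.6 and 14.0 TPM in the mutant, against 18.5, 16.2 and 18.0 TPM in the wild type (log2 -0.40 ± 0.14, adjusted p = 0.0418). The call ended without any one library except wild-type replicate 2, with adjusted p between 0.0763 and 0.115 in those 5 fits. Pps1, which makes phosphatidylserine, had 0.473, 0.862 and 0.503 TPM in the mutant, against 2.19, 0.789 and 1.57 TPM in the wild type, and its groups overlapped (log2 -0.81 ± 0.28, adjusted p = 0.0423). That call ended without mutant replicate 1 or 3 or wild-type replicate 1 or 3, with adjusted p between 0.111 and 0.142.

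Several coding introns held strong starts in both strains. SPAC9.07C, which encodes the GTPase Rbg1, had 18.8, 28.3 and 29.1 TPM in the mutant, against 22.2, 19.3 and 25.2 TPM in the wild type at the last base of its first intron, with overlapping groups (log2 0.17 ± 0.20, adjusted p = 0.525). Its start made up 33.3% ± 7.83 of the pair's tags in the mutant and 31.3% ± 5.00 in the wild type. These values are of the whole cluster (I:1475899-1476051), which extended upstream past the 48 nt intron (I:1475900-1475947). For atg1801, an autophagy-related WD repeat gene, the intron start had 17.5, 24.8 and 25.02 TPM in the mutant, against 23.2, 22.0 and 18.8 TPM in the wild type and was not called (log2 0.06 ± 0.18, adjusted p = 0.814), while the annotated promoter window had 0.0168 TPM in the mutant and 0.0332 TPM in the wild type. The start in omh5, a putative mannosyltransferase gene, had 8.65, 12.9 and 5.89 TPM in the mutant, against 13.0, 6.94 and 13.1 TPM in the wild type (log2 -0.27 ± 0.32, adjusted p = 0.532). The rest of its promoter window held no tag in any library. Promoter windows reach 100 bp downstream of the annotated gene start, and their values leave intron clusters out. Both starts lay inside the window of their own gene, 73 bp (atg1801) and 17 bp (omh5) downstream of the annotated start. The annotated leader of both genes is 0 nt long. The floor of 3 tags over a group corresponds to 0.0452 TPM in the mutant and 0.0571 TPM in the wild type.

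SPAC9E9.17C, a small gene of unknown function, had 4.99, 4.22 and 3.32 TPM in the mutant, against 1.79, 4.26 and 2.02 TPM in the wild type at its intron start, which was not called (log2 0.62 ± 0.29, adjusted p = 0.116). Without wild-type replicate 2 it was called higher (log2 0.94, adjusted p = 0.00687). Its promoter window had 0.129, 0.0431 and 0.151 TPM in the mutant, against 0.199, 10.8 and 0.0506 TPM in the wild type, wild-type replicate 2 standing far above the rest. Relative to that promoter the start was called higher (log2 2.05 ± 0.71, adjusted p = 0.0409). That call was lost without any one mutant library (adjusted p between 0.0617 and 0.0933), with either scaling (0.0632 and 0.0640), with a pseudocount of 0.1 TPM (0.0592) and without the level filter (0.0740).

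**Figure D4:**
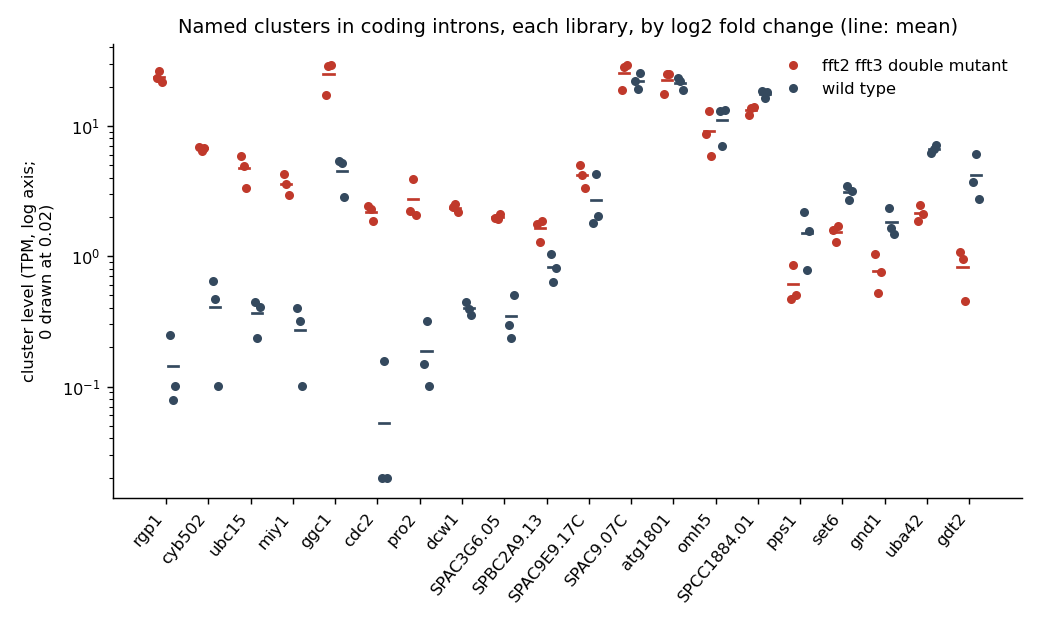
Level of the named clusters in coding introns (y axis, TPM on a log axis, 0 drawn at 0.02) in each library, ordered from the largest increase on the left to the largest decrease on the right, with mutant points in red, wild-type points in dark blue beside them and lines at the group means. For gnd1 the start that fell is shown. The rgp1 cluster sits above 21 TPM in every mutant library and below 0.3 TPM in every wild-type library.

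Other tested coding-intron clusters are given by the role of their host, as mean TPM in the mutant against the wild type, each from 3 libraries and without claim that any role was favoured. Hosts of mitosis and septation included sid1, a kinase of the septation network (5.10 ± 1.79 against 1.29 ± 0.433), cdc7 of the same network (2.05 ± 0.301 against 0.893 ± 0.204) and the DASH kinetochore subunit dad2, with starts at 3.16 ± 0.680 against 0.645 ± 0.0136 and 2.03 ± 0.565 against 0.194 ± 0.0994. All 4 rose, although the cdc7 call ended with DESeq2 (adjusted p = 0.0587). The septin genes spn2 (1.75 ± 0.464 against 1.73 ± 0.377) and spn3 (3.14 ± 0.213 against 3.27 ± 0.410) were not called.

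Among hosts that act on RNA and translation, the start in cbc2, annotated as a nuclear cap-binding subunit, rose (4.92 ± 0.783 against 0.871 ± 0.239), as did those in the signal recognition particle gene srp21 (3.25 ± 0.655 against 0.729 ± 0.0907) and the U2 snRNP-associated uap2 (2.53 ± 0.758 against 0.338 ± 0.202). The starts in the lariat debranching enzyme gene dbr1 (3.03 ± 0.0644 against 2.60 ± 0.525) and the exosome gene rrp46 (1.84 ± 0.261 against 1.48 ± 0.0798) were not called. Among membrane and actin hosts, the starts in the ESCRT-III gene vps32 (2.26 ± 0.181 against 0.287 ± 0.121), the actin assembly gene wsp1 (2.21 ± 0.0866 against 0.298 ± 0.129), the diacylglycerol-binding bzz1 (4.52 ± 0.791 against 0.695 ± 0.0892) and the GTPase gene ypt71 (1.82 ± 0.346 against 0.415 ± 0.124) rose. That in did2, also of ESCRT-III, was not called (1.41 ± 0.133 against 1.15 ± 0.320).

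The silencing factor gene clr5 held a pair of tested starts in its first intron. The weaker rose (1.72 ± 0.346 against 0.636 ± 0.0788 TPM), and the stronger was not called as deposited (3.22 ± 0.375 against 4.40 ± 0.589 TPM, log2 -0.40, limma adjusted p = 0.0886) but was called lower with either scaling (log2 -0.68). Metabolic hosts with a higher start were the phosphoglucomutase gene pgm2 (10.03 ± 3.18 against 3.06 ± 0.735 TPM), the fatty acid elongase gene elo1 (1.90 ± 0.147 against 0.691 ± 0.153 TPM) and met7, a putative folylpolyglutamate synthase gene (1.69 ± 0.307 against 0.519 ± 0.108 TPM). Alp1, a cofactor of tubulin folding, had 6.80 ± 0.660 against 1.83 ± 0.460 TPM at a start at base 5 from the end of its intron 3 and rose.

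Tested starts at the last intron base numbered 7 in coding introns, in SPAC9.07C, miy1, srp21, zas1, cdc7, wsp1 and gem1. All but the one in SPAC9.07C were higher in the mutant, where 36.9% of all tested clusters were. The wild-type means of miy1, srp21, cdc7, wsp1 and gem1 were below 1 TPM. These clusters reached the limit through the mutant alone and had to be higher there, so the count is no result about this position. The start at intron base 4 of SPCC777.12C, of an endoplasmic reticulum thioredoxin family gene, had 1.75 ± 0.385 against 0.311 ± 0.202 TPM and rose (log2 1.496 ± 0.23, adjusted p = 0.000740), and its promoter had 147 ± 75.8 TPM in the mutant and 270.3 ± 113 TPM in the wild type.

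Each intron start was also set against the promoter of its own gene, that is the same-strand clusters from 500 bp upstream to 100 bp downstream of the annotated start without intron clusters. The test is of the difference between both changes, adjusted over the 3281 sense clusters inside genes whose promoter could be measured. In leader introns 7 of 12 starts were higher relative to the promoter and 2 lower. In coding introns 44 of 74 were higher and 5 lower, and 41 of the 44 were also called higher on their own. The lower count was 3 without mutant replicate 2 or wild-type replicate 1. Over all 3281 clusters 40.4% were called, 36.1% higher and 4.3% lower, and over coding exons 34% and 2.74%. The overlap of 41 is partly built in, since both calls use the same cluster values. Of the tested intron clusters, 35 in coding and 2 in leader introns reached 1 TPM through the mutant alone, so the counts relative to the promoter are descriptions too. The starts in atg1801, omh5 and dcw1 had promoters under 1 TPM and were not tested in this way.

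In coding introns the largest increases relative to the promoter were those of rgp1 (log2 6.31 ± 0.25, adjusted p = 1.44e-07), pro2 (log2 4.65 ± 0.30, adjusted p = 1.09e-06), SPAC3G6.05 (log2 3.97 ± 0.27, adjusted p = 1.49e-06) and cyb502 (log2 3.55 ± 0.30, adjusted p = 5.17e-06). The largest decreases were those of gdt2 (log2 -1.63 ± 0.28, adjusted p = 0.000719), uba42 (log2 -1.52 ± 0.20, adjusted p = 8.24e-05), set6 (log2 -1.11 ± 0.23, adjusted p = 0.00234) and the downstream start of gnd1 (log2 -0.82 ± 0.24, adjusted p = 0.0185). The gnd1 call ended without mutant replicate 2 (adjusted p = 0.0654) or wild-type replicate 1 (0.0863). In leader introns SPBC115.03 (log2 2.47 ± 0.29, adjusted p = 4.13e-05), vms1 (log2 2.33 ± 0.25, adjusted p = 2.31e-05) and the upstream trs1 start (log2 2.17 ± 0.22, adjusted p = 1.62e-05) were highest, and ppa1 (log2 -1.37 ± 0.23, adjusted p = 0.000607) fell with the downstream dao1 start.

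The promoters of the hosts were called about as often as promoters in general. Of the 10 promoters of genes with a tested leader-intron start 2 were lower and 8 were not called, and of the 68 of genes with a tested coding-intron start 8 were higher and 10 lower. Over all 4672 promoters tested 23.7% were called, 14.7% higher and 8.97% lower. The split depended on scaling and on single libraries. With median-of-ratios scaling 3 of the 68 coding-intron hosts were higher and 27 lower, and with TMM 3 and 26, while 5 and 7 of the 10 leader-intron hosts were lower. Both scalings also moved the median log2 fold change of all tested clusters, from 0.27 as deposited to -0.02. The shares of all 4672 promoters called with these scalings or without single libraries are not given here. Host counts under these alternatives thus cannot be set against promoters in general. Among the coding-intron hosts, 5 were higher and 5 lower without mutant replicate 2 or wild-type replicate 3, 4 and 3 without mutant replicate 3, 5 and 6 without wild-type replicate 1, 4 and 8 without wild-type replicate 2, and 7 and 11 without mutant replicate 1.

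**Figure D5:**
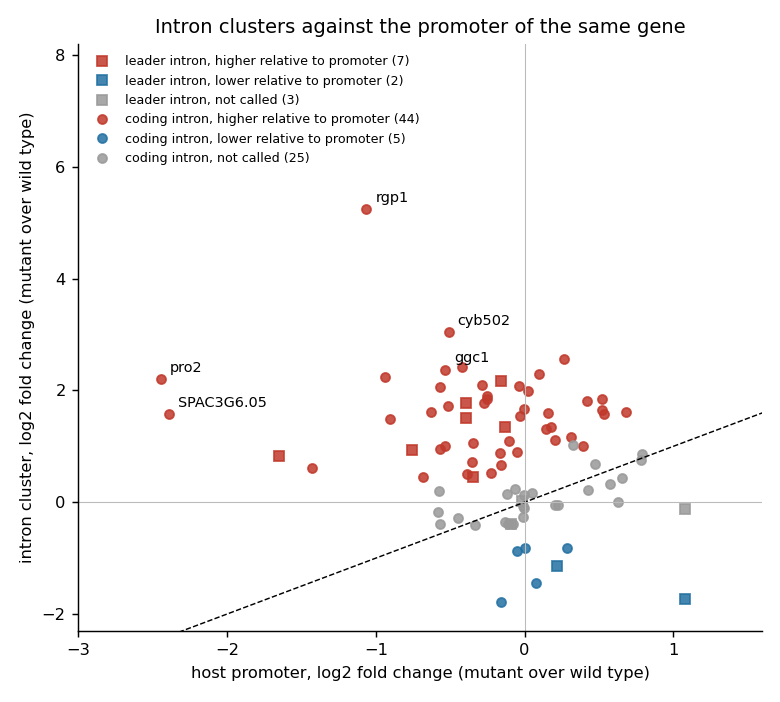
Log2 fold change of the intron cluster (y axis) against that of the promoter of the same gene (x axis), both mutant over wild type, with squares for leader introns, circles for coding introns and a dashed line where both changes are equal. Red marks clusters called higher relative to the promoter (7 and 44), blue those called lower (2 and 5) and grey those not called. Points lie mostly above the line, and pro2 and SPAC3G6.05 lie far to the left.

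The reading frames open to an RNA from each tested start were read from the sequence, with downstream introns spliced as annotated. In leader introns the whole protein can be encoded, and for 5 of the 12 starts the first AUG was the annotated start codon (SPAC1039.01, idn1, cox14, SPBC115.03 and the trs1 start at the intron end). The other 7 had between 1 and 5 AUGs before it, among them 5 for the upstream dao1 start, where the spliced annotated leader has none.

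In coding introns the first AUG was in the host frame for 11 of 77 starts, those of get4, SPBC3B8.08, sid1, ivn1, nse2, ubc15, spn2, zas1, wsp1, SPAC3G6.05 and SPCC126.12. For 4 starts no host-frame AUG of the annotated coding sequence lay downstream (srp21, gem1 and both of dad2). For all other starts, those 11 included, translation from the next such AUG would leave out between 16 and 798 residues of the annotated protein. The median was 114. Translation from that AUG would leave out 289 of 550 codons in rgp1, 122 of 300 in ggc1, 72 of 124 in cyb502 and 202 of 297 in cdc2. These values do not count AUGs in the retained part of the intron, where the first AUG of SPAC3G6.05 lay. CAGE gives the 5′ end alone, and whether these RNAs were spliced or translated was not measured.

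Intron genes as a whole, 2436 in number, held 0.810 clusters per gene, and 45.5% of them held at least 1. The 74 ribosomal protein genes with introns held 36 clusters, or 0.486 per gene, that summed to 7.03 TPM in the mutant and 7.87 TPM in the wild type. Of these only the one in rps2502 was tested, which was not called as deposited (log2 -0.41, limma adjusted p = 0.187) and was called lower with either scaling (log2 -0.70, adjusted p = 0.0431 with median-of-ratios and -0.71, 0.0427 with TMM). Genes with a snoRNA in an intron numbered 10 and held 15 clusters, or 1.5 per gene, all below 1 TPM, with sums of 1.68 TPM in the mutant and 1.44 TPM in the wild type. Tested clusters were higher in 14 of 23 cases (60.9%) and lower in 1 in genes with more than 3 introns, and higher in 37 of 66 (56.1%) and lower in 7 in genes with 1 to 3 introns. Both shares of higher clusters were near the 57.3% of all 89 tested intron clusters. Of the 77 tested coding-intron clusters 46 (59.7%) lay in the first intron of the gene, as do 46.2% of the annotated coding introns.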

How the data were processed

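CAGE tags were measured in 3 mutant and 3 wild-type libraries. The tools named, per the submitters' processing notes, are Bowtie 0.12.7, CASAVA 1.6 and bedtools 2.15.0, and the build is ASM294v2. Their roles are not given in the sources used here. The authors deposited, for the same 108138 clusters in every library, RPM values, which they wrote as TPM (tags per 1000000 tags). The deposited cluster table also gives each cluster's strand, its summit and a pooled signal score that was not used.

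Introns were taken from the RefSeq annotation of ASM294v3. Its match to the deposited coordinates was checked: with each chromosome cut into 4 parts, the pyrimidine-purine step was found at 96.7% to 100% of promoter clusters of 5 TPM or more, 1 bp upstream of the summit, against 23.1% of genome positions. The 8 clusters in the 55 introns downstream of stop codons were left out. The 19 annotated introns under 20 nt held no cluster. They count among the annotated introns but were left out of the shares of intron ends in TAG and CAG. A cluster near a splice site may extend past it, and 94 of 106 leader-intron and 1713 of 1868 coding-intron clusters lay wholly inside. Levels are those of whole clusters, and where a cluster extended past the intron the part from the intron was not separated.

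Values of log2(TPM + 0.5) were tested two-sided with limma 3.58.1 (eBayes, trended prior). P-values were adjusted by Benjamini-Hochberg, at 0.05, over all 11250 clusters, 3281 cluster-promoter pairs or 4672 promoters with a mean of at least 1 TPM. This scale understates changes of low clusters. Between 99.7% and 99.8% of values were whole multiples of 1 tag (tolerance 0.02), and edgeR 4.0.16 and DESeq2 1.42.0 were run on those recovered tags as alternatives. Tags carry no molecular identifiers, so counting intervals and floors (3 tags over a group) cover counting error only. On simulated data for the cluster test (11250 clusters), 51% of 2-fold and 95% of 4-fold changes were recovered. For the test relative to the promoter, simulated with promoter levels held fixed, 39% and 94% were recovered. For the promoter test 73% and 100% were.

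Clusters named in the text are, for each kind of intron, the 6 strongest, the 6 with the largest and smallest log2 fold change among those called, the 4 with the largest share of the gene's tags in the mutant, the 4 with the largest change relative to the promoter in each direction, and up to 4 overlapping another gene. Hosts described by role, and those at the splice sites, were chosen after their values were seen. The members, lists and rules were chosen with earlier results of these data known.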

Additional observations from a re-analysis of the deposited data

How the results depend on the processing

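No call in the 175 tests of single clusters (89 levels and 86 relative to the promoter) reversed under any of 2443 refits; 140 kept their call throughout, 117 refits lost and 31 gained one, and 24 values not called changed sign in 73 refits. Without the level filter, 21 of 106 clusters in leader introns were called higher and 6 lower, and 289 and 20 of 1868 in coding introns. Relative to the promoter these were 14 and 16 of 106, and 346 and 105 of 1863. With at least 2 TPM, leader introns had 1 lower, and 4 higher and 1 lower relative to the promoter; coding introns had 16 higher, and 16 and 3 relative to the promoter. Of clusters wholly inside introns, an alternative chosen after seeing the data, 3 were higher in leader and 25 in coding introns.

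Lower leader-intron clusters were 4 with median-of-ratios scaling, TMM, edgeR and DESeq2. Lower promoters of leader-intron hosts were 5 and 7 with those scalings, and those of coding-intron hosts 27 and 26, with 3 higher in both. The cause was not tested, and the shares of all promoters called with these scalings are not given here. Leaving out 1 library gave 0 to 1 higher promoters of leader-intron hosts (1 without wild-type replicate 2), 4 to 7 higher and 3 to 11 lower promoters of coding-intron hosts, and 3 to 5 coding-intron clusters lower relative to the promoter.

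Same-numbered libraries did not deviate together (r between -0.25 and -0.15), so the numbers do not pair them. No library correlated best with its own number: mutant replicate 1 went with wild-type replicate 3 (r = 0.34), 2 with 1 (0.35) and 3 with 2 (0.29), and the other mixed pairs had r below 0. No label ties these libraries, and no fit paired them in this way. With the replicate number as a block, promoters of leader-intron hosts had 1 lower, and those of coding-intron hosts 3 higher and 3 lower. Coding-intron clusters higher were 43 with the block, 40 with edgeR and 38 with DESeq2.

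Without the strongest cluster of each kind, also added later, leader introns held 0.00695% of tags in the mutant and 0.00494% in the wild type, and coding introns in the wild type 0.02896%. At 1 TPM a library holds between 12.7 and 23.2 tags, so most members, which lie far below, cannot be compared singly.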
